A study of Mus musculus with 8 samples.

Results

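The 10 genes described here encode transcription factors and a coactivator of early B cell development: Tcf3, Ebf1, Pax5, Foxo1, Ikzf1, Ikzf3, Spib, Erg, Bach2 and Pou2af1. They were chosen by symbol, each symbol matched 1 gene identifier, and they are 10 of the 41214 genes counted. Messenger RNA had been sequenced from 8 spleen tumours of C57Bl6 mice, 1 mouse per library. The groups were B cell tumours with Miz1 deltaPOZ, B cell tumours with Miz1 wt, CD4+ T cell tumours with Miz1 deltaPOZ and CD4+ T cell tumours with Miz1 wt, with 2 libraries in each (B deltaPOZ, B wt, T deltaPOZ and T wt below). Miz1 is the zinc finger protein encoded by Zbtb17, and deltaPOZ is a form without the POZ domain through which Miz1 molecules join.

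The labels do not give the lesion that started a tumour, the Cre or promoter used, or the age of the mice. The names of the deposited tables carry the tag Notch for all 4 T libraries and the tag ENU for the T deltaPOZ libraries only, and they name a different run for B and for T. Run and lineage therefore cannot be told apart, nor can genotype and the ENU tag within T. The libraries are bulk tissue, in which fewer cells of a type and less RNA per cell cannot be told apart.

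In mouse bone marrow, Tcf3 and Ebf1 open the B lineage programme and Pax5 then commits cells to it, activating genes of the B cell receptor and repressing genes of other lineages. Ikzf1 and Ikzf3 encode Ikaros and Aiolos, zinc finger proteins at work in both B and T cells. Spib and Erg encode ETS family proteins, Foxo1 a forkhead protein needed for Rag and Il7r expression, Bach2 a repressor that holds back plasma cell differentiation, and Pou2af1 a coactivator that docks on octamer-binding proteins.

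On GRCm38 the genes lie at chr10:80409514-80433647 (Tcf3), chr11:44617317-45008091 (Ebf1), chr4:44524757-44710487 (Pax5), chr3:52268336-52353221 (Foxo1), chr11:11685003-11772926 (Ikzf1), chr11:98464902-98546031 (Ikzf3), chr7:44525993-44532071 (Spib), chr16:95359169-95586593 (Erg), chr4:32238804-32586108 (Bach2) and chr9:51213708-51240080 (Pou2af1). Tcf3, Pax5, Ikzf3, Spib and Erg are on the minus strand and the others on the plus strand.

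Of the 10 genes, 9 have a promoter entry in RefSeq (GRCm38.p6), with 13 start sites in all, and Ikzf3 has none. The 250 bases before a start were searched on both strands for 7 short motifs named for proteins of this network: the octamer (ATGCAAAT), the EBF palindrome (TCCC, any 2 bases, GGGA), the E-boxes CAGGTG and CAGCTG, the PU box (GAGGAA), the Ikaros core (TGGGAA) and the forkhead core (GTAAACA). Some motifs can overlap. The shares of all 32851 promoter windows of this length that hold them were 1.6% for the octamer, 0.779% for the EBF palindrome, 17.2% for CAGGTG, 13% for CAGCTG, 23.3% for the PU box, 21.6% for the Ikaros core and 3.17% for the forkhead core. The windows below belong to the 5 factors with the largest difference of B over T tumours (Ebf1, Pax5, Pou2af1, Bach2, Spib), to Erg, which differed most between B deltaPOZ and B wt, and to Foxo1, the only member window with the rare EBF palindrome. Capitals mark motif matches.
Pax5, chr4:44710695-44710944, minus strand: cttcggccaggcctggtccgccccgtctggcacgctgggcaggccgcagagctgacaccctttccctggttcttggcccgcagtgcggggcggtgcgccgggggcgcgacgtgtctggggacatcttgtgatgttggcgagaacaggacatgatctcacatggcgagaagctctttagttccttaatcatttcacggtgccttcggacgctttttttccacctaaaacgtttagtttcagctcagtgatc
Ebf1, inner start, chr11:44619978-44620227, plus strand: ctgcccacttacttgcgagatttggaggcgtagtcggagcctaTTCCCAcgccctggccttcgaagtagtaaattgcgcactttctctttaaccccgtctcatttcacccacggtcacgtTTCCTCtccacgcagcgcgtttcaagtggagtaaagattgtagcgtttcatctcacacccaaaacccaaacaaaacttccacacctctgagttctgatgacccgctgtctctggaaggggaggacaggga
Pou2af1, chr9:51213440-51213689, plus strand: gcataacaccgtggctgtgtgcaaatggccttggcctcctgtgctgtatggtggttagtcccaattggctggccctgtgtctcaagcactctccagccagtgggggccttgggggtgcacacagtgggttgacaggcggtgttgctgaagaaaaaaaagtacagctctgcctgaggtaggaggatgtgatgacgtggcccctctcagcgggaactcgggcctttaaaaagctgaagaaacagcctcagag
Bach2, chr4:32417185-32417434, plus strand: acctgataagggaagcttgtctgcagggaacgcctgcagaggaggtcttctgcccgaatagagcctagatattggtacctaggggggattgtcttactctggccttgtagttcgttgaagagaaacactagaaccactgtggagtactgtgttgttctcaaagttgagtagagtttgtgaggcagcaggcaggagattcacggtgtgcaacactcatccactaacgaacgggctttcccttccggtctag
Spib, chr7:44532072-44532321, minus strand: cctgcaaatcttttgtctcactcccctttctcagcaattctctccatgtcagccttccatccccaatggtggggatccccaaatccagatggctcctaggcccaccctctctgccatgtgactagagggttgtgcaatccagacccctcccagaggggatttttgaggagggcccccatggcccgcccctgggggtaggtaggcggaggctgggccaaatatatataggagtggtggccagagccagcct
Erg, outermost start, chr16:95586594-95586843, minus strand: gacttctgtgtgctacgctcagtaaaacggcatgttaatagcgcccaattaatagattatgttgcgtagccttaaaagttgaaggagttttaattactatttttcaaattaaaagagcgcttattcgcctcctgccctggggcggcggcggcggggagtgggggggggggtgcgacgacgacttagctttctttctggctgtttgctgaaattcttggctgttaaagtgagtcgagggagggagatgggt
Erg, innermost start, chr16:95459349-95459598, minus strand: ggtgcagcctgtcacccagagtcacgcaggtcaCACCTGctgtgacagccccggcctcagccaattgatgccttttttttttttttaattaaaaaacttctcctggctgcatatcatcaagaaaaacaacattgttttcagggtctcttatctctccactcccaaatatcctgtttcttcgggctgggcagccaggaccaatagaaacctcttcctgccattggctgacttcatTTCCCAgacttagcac
Foxo1, chr3:52268087-52268336, plus strand: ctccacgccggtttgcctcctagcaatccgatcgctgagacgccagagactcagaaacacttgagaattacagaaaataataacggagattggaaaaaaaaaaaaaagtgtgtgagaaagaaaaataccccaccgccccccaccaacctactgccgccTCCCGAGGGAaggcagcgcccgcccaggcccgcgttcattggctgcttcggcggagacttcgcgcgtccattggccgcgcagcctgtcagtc
In the Ebf1 window the Ikaros core (as TTCCCA) lay 207 bases and the PU box (as TTCCTC) 130 bases before the start. The innermost Erg window held an E-box (as CACCTG) 217 bases and an Ikaros core (as TTCCCA) 16 bases before the start, and the Foxo1 window held TCCCGAGGGA 92 bases before the start. The windows of Pax5, Pou2af1, Bach2, Spib and the outermost Erg start held none of these exact letters. The Bach2 window lies inside the gene, which spans chr4:32238804-32586108, as the Ebf1 and innermost Erg windows lie inside theirs. A match is a description of the sequence and not of binding.

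The libraries held 44330101 to 58271208 gene counts, and 16456 of the 27639 genes with a count passed the filter on low counts, all 10 members among them. Levels are CPM, counts scaled to the size of the library with trimmed-mean normalization factors, and a count of 0 allows up to 0.0515 to 0.0677 CPM (3 counts, counting error only). The tumours matched their labelled lineage: the T cell receptor subunit Cd3e read 0.140 to 0.332 CPM in B libraries and 78.5 to 93.4 CPM in T libraries, and the B cell receptor subunit Cd79b read 468 to 970.5 CPM in B and 5.23 to 25.2 CPM in T. Zbtb17, the altered gene, read 49.4 and 59.1 CPM in B deltaPOZ against 66.1 and 48.0 CPM in B wt, and 40.1 and 36.9 CPM in T deltaPOZ against 49.6 and 42.3 CPM in T wt. A count over the whole gene does not check a deletion of part of it. Several libraries stood apart: neutrophil and macrophage genes summed to 1321 CPM in B wt 2 against 184 CPM in B wt 1, 25387 genes had a count in T deltaPOZ 2, where the other libraries had 18339 to 21078, and T wt 1 had both Xist (1246 CPM) and the Y-linked Ddx3y (22.5 CPM). In B, sex followed genotype: Xist read 0.936 and 0.757 CPM in B deltaPOZ against 975 and 1477 CPM in B wt, so sex and genotype cannot be told apart there.

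B tumours were set against T tumours first, since these genes define a lineage. By the quasi-likelihood test of edgeR, with p-values adjusted (Benjamini-Hochberg) over all 16456 genes, 7 of the 10 members passed 0.05, where 35.3% of all tested genes did. Called higher in B were Ebf1, Pax5, Pou2af1, Bach2, Spib and Tcf3, where 16% of all genes were called higher. Called lower in B was Ikzf1, where 19.3% of all genes were called lower. The same 6 and the same 1 had B and T libraries that did not overlap, against 17% and 20.1% of all genes. The members' median log2 difference was 1.90, against -0.05 over all genes. Ikzf3, Foxo1 and Erg did not pass. DESeq2 called the same 7, where it called 41.9% of all genes. Without B wt 2, T wt 1 and T deltaPOZ 2, the calls of Ebf1, Pax5, Pou2af1, Bach2, Spib and Ikzf1 were kept.

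Markers of other cell types differed between the lineages as well. Of 8 erythroid genes 8 were called lower in B (median log2 -8.84), with a summed level of 12.4 to 222 CPM in B deltaPOZ and 4.87 to 5.09 CPM in B wt, against 7610 to 12467 CPM in T deltaPOZ and 4637 to 22602 CPM in T wt. Of 5 platelet genes 4 were called lower in B (median log2 -5.36), and their sums were 1.08 to 2.09 CPM in B deltaPOZ and 1.31 to 2.24 CPM in B wt, against 20.5 to 35.6 CPM in T deltaPOZ and 6.70 to 14.8 CPM in T wt. The platelet receptor gene Gp1bb was at 0 in all B libraries, and no erythroid gene was at 0 in all libraries of a lineage. The neutrophil and macrophage sums overlapped between the lineages, at 98.8 to 256 CPM in B deltaPOZ and 184 to 1321 CPM in B wt, against 237 to 516 CPM in T deltaPOZ and 120 to 811 CPM in T wt. The part of these cells in the members' differences between B and T was not tested.

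**Figure D1:**
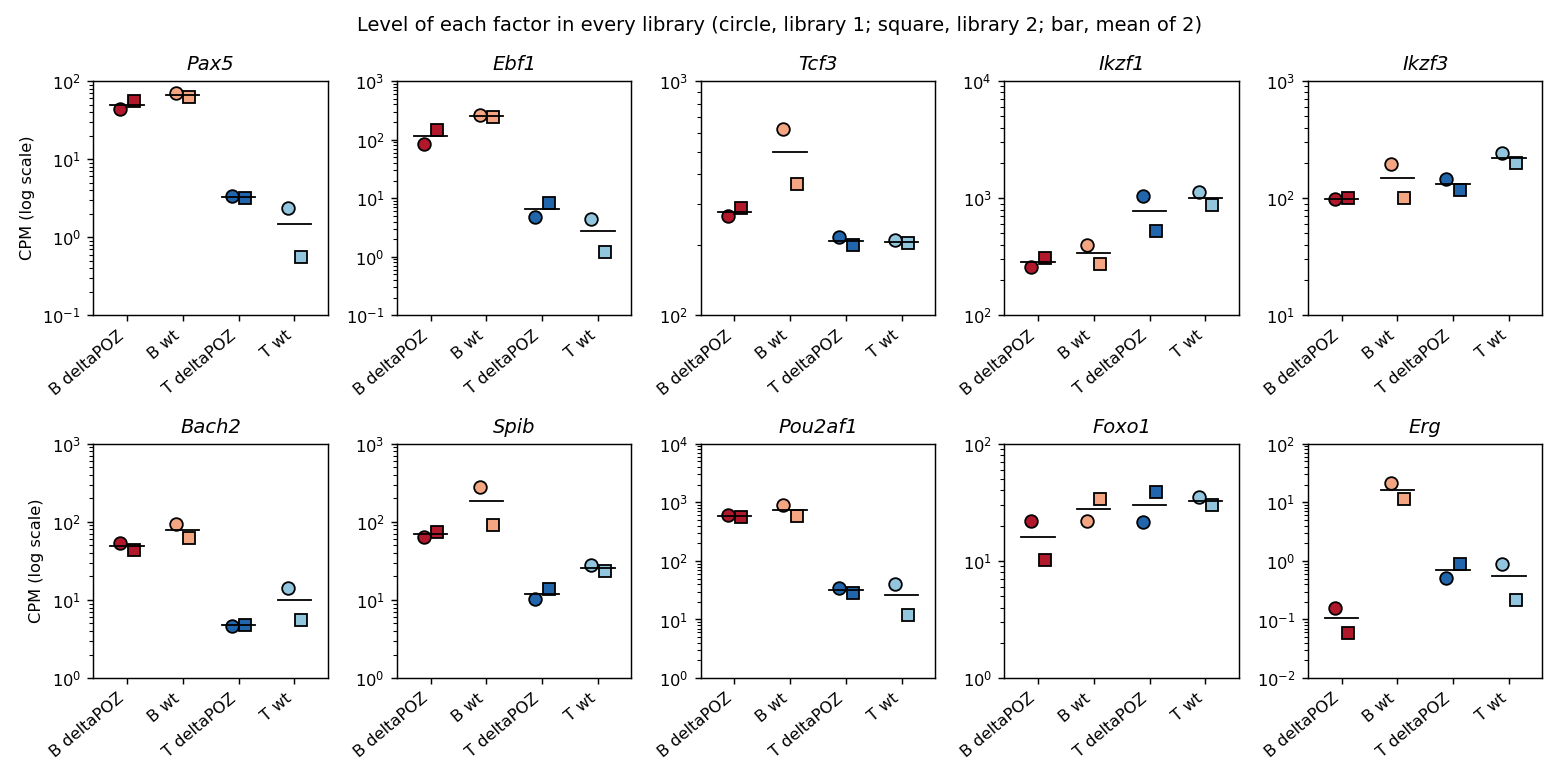
Level of each of the 10 factors in all 8 libraries, in CPM on a log scale; circles and squares are the 2 libraries of a group and the bar is their mean. Pax5, Ebf1, Bach2, Spib and Pou2af1 lie far higher in all 4 B libraries than in all 4 T libraries, while Erg is high only in the 2 B wt libraries (21.1 and 11.5 CPM).

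The genes that open the programme differed in how widely they were expressed. Tcf3, which encodes the E-box protein E2A, read 264.7 and 287 CPM in B deltaPOZ, 627 and 364 CPM in B wt, 215 and 199 CPM in T deltaPOZ, and 209 and 204 CPM in T wt. It was thus abundant in every library, the 4 T libraries lay close together, and B wt 1 stood above the rest. Tcf3 was higher in B than in T by 0.84 on the log2 scale (SE 0.18, edgeR adjusted p = 0.0136). The call did not hold without T deltaPOZ 2 (adjusted p = 0.0531) or without B wt 2, T wt 1 and T deltaPOZ 2 together (adjusted p = 0.0567). Among deltaPOZ tumours alone the difference was 0.41 (SE 0.26, edgeR adjusted p = 0.292), and among wt tumours alone 1.26 (SE 0.26, edgeR adjusted p = 0.0232).

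Ebf1 read 83.4 and 146.9 CPM in B deltaPOZ, 262 and 245 CPM in B wt, 4.80 and 8.34 CPM in T deltaPOZ, and 4.36 and 1.19 CPM in T wt. Every B library lay above every T library, and both B wt libraries lay above both B deltaPOZ libraries. The difference of B over T was 5.32 on the log2 scale (SE 0.49, edgeR adjusted p = 0.000835), the largest of the 10 members. Without T wt 1 it was 5.93.

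Pax5 read 43.5 and 54.9 CPM in B deltaPOZ, 70.8 and 62.6 CPM in B wt, 3.37 and 3.20 CPM in T deltaPOZ, and 2.40 and 0.559 CPM in T wt. The B and T libraries did not overlap, and the log2 difference was 4.70 (SE 0.46, edgeR adjusted p = 0.00103), or 5.40 without T wt 1. Foxo1, by contrast, read 22.0 and 10.2 CPM in B deltaPOZ, 22.0 and 33.9 CPM in B wt, 21.7 and 38.4 CPM in T deltaPOZ, and 35.3 and 30.3 CPM in T wt. Its libraries overlapped between lineages, with B deltaPOZ 2 the lowest of the 8, and it did not pass (log2 -0.56, SE 0.32, edgeR adjusted p = 0.21).

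Ikzf1, which encodes Ikaros, was the 1 member called lower in B. It read 257 and 311 CPM in B deltaPOZ, 401 and 274 CPM in B wt, 1045 and 522 CPM in T deltaPOZ, and 1120 and 883 CPM in T wt. All 4 T libraries were above all 4 B libraries, and Ikzf1 was lower in B by a log2 difference of -1.52 (SE 0.26, edgeR adjusted p = 0.00599). Ikzf3 read 97.7 and 100.9 CPM in B deltaPOZ, 195.6 and 100.4 CPM in B wt, 145 and 119 CPM in T deltaPOZ, and 242 and 201 CPM in T wt. B wt 1 reached into the T range, and the difference did not pass (log2 -0.50, SE 0.22, edgeR adjusted p = 0.124). Without B wt 1 it was -0.77, with an edgeR adjusted p of 0.0195.

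Bach2, the repressor, read 53.9 and 43.4 CPM in B deltaPOZ, 94.9 and 62.3 CPM in B wt, 4.64 and 4.84 CPM in T deltaPOZ, and 14.3 and 5.53 CPM in T wt. B lay above T in every library, by 3.17 on the log2 scale (SE 0.34, edgeR adjusted p = 0.00139), and T wt 1 stood above the other T libraries. Pou2af1, the coactivator, read 602 and 557 CPM in B deltaPOZ, 884 and 584 CPM in B wt, 34.7 and 28.1 CPM in T deltaPOZ, and 40.3 and 11.9 CPM in T wt. It was higher in B by 4.51 (SE 0.42, edgeR adjusted p = 0.000879), with no overlap.

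The ETS genes Spib and Erg were unlike each other. Spib, a relative of PU.1, read 64.8 and 75.0 CPM in B deltaPOZ, 278 and 89.9 CPM in B wt, 10.3 and 13.6 CPM in T deltaPOZ, and 28.3 and 23.3 CPM in T wt. Each lineage was apart from the other, and wt was above deltaPOZ in both, with B wt 1 far above the rest. Its difference of B over T was 2.69 (SE 0.36, edgeR adjusted p = 0.00271).

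Erg read 0.156 and 0.0598 CPM in B deltaPOZ, 21.1 and 11.5 CPM in B wt, 0.513 and 0.878 CPM in T deltaPOZ, and 0.873 and 0.216 CPM in T wt. Erg was high in the B wt libraries only, and the B deltaPOZ libraries lay below every T library. Over both genotypes its difference of B over T did not pass (log2 1.12, SE 0.58, edgeR adjusted p = 0.173). Among wt tumours it was 4.90 (SE 0.87, edgeR adjusted p = 0.0154), and among deltaPOZ tumours -2.66 (SE 0.85, edgeR adjusted p = 0.074), which did not pass.

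**Figure D2:**
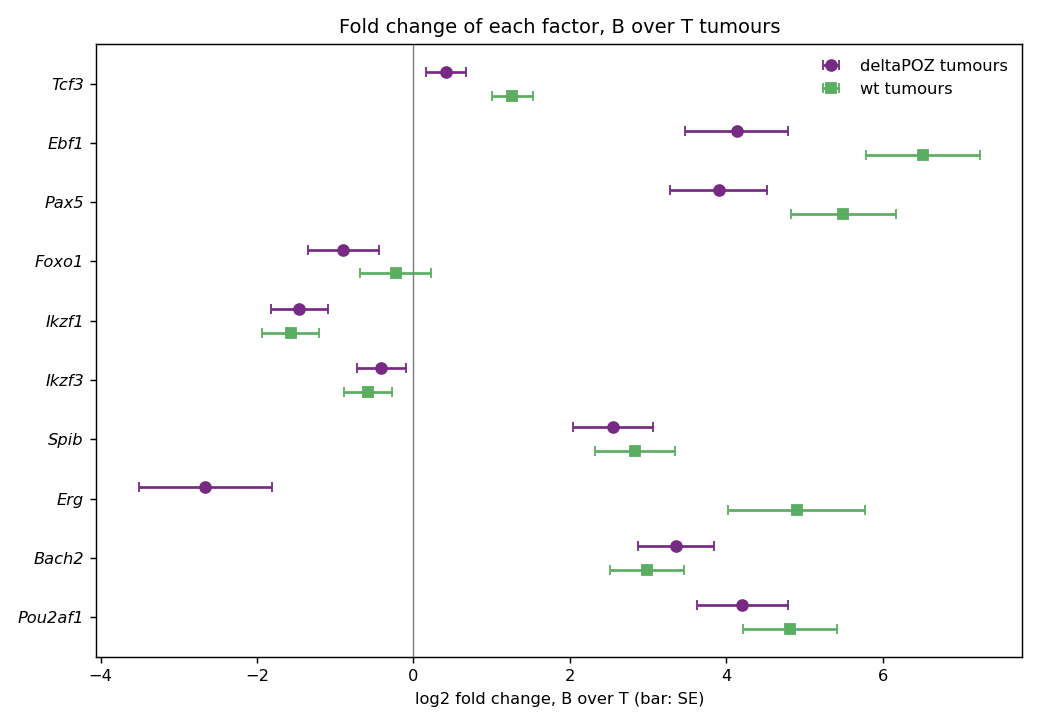
Log2 fold change of B over T tumours for each factor, in deltaPOZ tumours (circles) and wt tumours (squares), with SE bars. Ebf1, Pax5, Pou2af1, Bach2 and Spib lie well to the right in both, Ikzf1 lies to the left in both, and Erg has opposite signs (-2.66 in deltaPOZ, 4.90 in wt).

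With each genotype taken alone, 6 members passed between B deltaPOZ and T deltaPOZ (17.2% of all genes did), namely those above without Tcf3. Between B wt and T wt 8 passed (16.4% of all genes did), with Erg added.

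Levels of different genes were compared per kilobase of exon. In B deltaPOZ the order was Pou2af1 (227 ± 12.6 CPM per kb, SD, n = 2), Tcf3 (68.3 ± 3.90), Ikzf1 (49.2 ± 6.55), Spib (24.4 ± 2.51), Ebf1 (11.8 ± 4.61), Ikzf3 (11.3 ± 0.258), Pax5 (5.56 ± 0.906), Bach2 (4.89 ± 0.750), Foxo1 (1.86 ± 0.964) and Erg (0.0311 ± 0.0196). Neighbours whose libraries overlapped were Ebf1 with Ikzf3 and Pax5 with Bach2. In B wt, Pou2af1 (288 ± 83.4) again led, followed by Tcf3, Spib and Ikzf1. The libraries of Spib overlapped those of Tcf3 and those of Ikzf1, while Tcf3 lay above Ikzf1 without overlap. Bach2 overlapped with Pax5, and Erg (4.69 ± 1.96) stood above Foxo1 (3.23 ± 0.969) with overlap. In T tumours Ikzf1 led, at 135.5 ± 64.0 CPM per kb in T deltaPOZ and 173 ± 29.1 in T wt, followed by Tcf3 at 51.3 ± 2.78 in T deltaPOZ and 51.1 ± 0.789 in T wt. Ebf1, Bach2, Pax5 and Erg were the 4 lowest members in both T groups, with Pax5 at 0.371 ± 0.0138 in T deltaPOZ and 0.167 ± 0.147 in T wt.

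The 12 B lineage identity genes, read as markers of B cells in the T tumours, summed to 1415 to 1774 CPM in T deltaPOZ and 1549 to 1799 CPM in T wt, with none at 0 in all T libraries. Most of that sum was Cd24a (493 to 1392 CPM over the T libraries) and Ighm (333 to 946 CPM). These were the 2 listed genes that edgeR did not call between B and T. Cd79b, also on the list, read 5.23 to 25.2 CPM in T. The part of B cells in the members' levels in T tumours was not tested.

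Patterns over the 8 libraries were compared by the root mean square difference of log2 CPM centred on each gene's mean, a description with no test in which the lineages carry most of the spread. Pax5 and Pou2af1 were the most alike of the 45 member pairs (0.40), followed by Pax5 and Ebf1 (0.48), Ikzf1 and Ikzf3 (0.54), and Bach2 and Spib (0.55). Among all tested protein-coding genes the nearest to Pax5 was Siglecg (0.20), an inhibitory receptor of B cells, then Plcg2 (0.29), which signals from the B cell receptor, and Wdfy4 (0.30). Siglecg (0.47) and the receptor subunit Cd79b (0.47) were nearest to Ebf1, and Susd3 (0.26) and the adaptor Blnk (0.29) to Pou2af1. Spib was nearest to 1700019D03Rik (0.33) and to Tnfrsf13c (0.41), the receptor for the survival factor BAFF, and Bach2 to BC035044 (0.24). Tcf3 (Cgrrf1, 0.09), Ikzf3 (Dcp1b, 0.12), Foxo1 (Kif3a, 0.19) and Ikzf1 (Wdr26, 0.21) each had a close neighbour. No gene came near Erg: the nearest, Sccpdh, was 1.03 away.

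The effect of deltaPOZ within B tumours was then examined. All 10 members had a lower fitted level in B deltaPOZ than in B wt, with a median log2 fold change of -0.74, against -0.01 over all genes, of which 50.7% were lower. In edgeR 0 of the 10 passed an adjusted p of 0.05, where 0.00608% of all genes (1 gene) did. At an unadjusted p under 0.05 there were 3 members (Erg, Tcf3 and Spib), and 12.1% of all genes. DESeq2 called 1 member, Erg, where it called 4.18% of all genes, and limma-voom called 0. The libraries of 7 members (Tcf3, Ebf1, Pax5, Foxo1, Spib, Erg and Bach2) were lower without overlap, against 19.1% of all genes, and 0 were higher without overlap, against 19.9%. For Foxo1 the gap was slight, since B deltaPOZ 1 and B wt 1 both read 22.0 CPM. B wt 1 was the highest B library for 9 of the 10 members, all but Foxo1, against 28.4% of all genes.

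Erg had by far the largest fold change of the 10. The counts behind the levels given above were 8 and 3 in B deltaPOZ against 1110 and 516 in B wt, and the groups lay far apart. The fitted log2 fold change was -7.20 (SE 0.99), with an edgeR adjusted p of 0.0819 that did not pass. The ratio of summed, depth-scaled counts of deltaPOZ to wt was 0.00654 (95% exact interval 0.00326 to 0.0117, counting error only). Leaving out each library in turn kept the fitted log2 value between -7.98 and -6.68, with adjusted p of 0.116 to 0.291 by edgeR. Without B wt 2, T wt 1 and T deltaPOZ 2 it was -7.58 (edgeR adjusted p = 0.352). In DESeq2 the log2 value was -7.23 and the adjusted p 5.39e-14.

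For the other members the values were smaller. Spib stood at -1.40 (SE 0.49, edgeR adjusted p = 0.361), Ebf1 at -1.14 (SE 0.58, edgeR adjusted p = 0.474) and Tcf3 at -0.85 (SE 0.26, edgeR adjusted p = 0.318). Foxo1 stood at -0.80 (SE 0.45), Bach2 at -0.69 (SE 0.44), Ikzf3 at -0.58 (SE 0.31), Pax5 at -0.44 (SE 0.55), Pou2af1 at -0.34 (SE 0.51) and Ikzf1 at -0.25 (SE 0.36), all with edgeR adjusted p between 0.498 and 0.828. None of these 9 passed by edgeR or DESeq2. The value of Spib rested on B wt 1, without which it was -0.36, and without B wt 2 it was -1.93. Others also moved when each library was left out in turn. Ikzf3 ranged from -0.92 to -0.014, Pou2af1 from -0.55 to -0.0092, Ikzf1 from -0.44 to 0.057 and Tcf3 from -1.12 to -0.40. For Ikzf3, Pou2af1 and Ikzf1, B wt 2 (100.4, 584 and 274 CPM) lay between the B deltaPOZ libraries (97.7 and 100.9, 602 and 557, 257 and 311 CPM). The value of Foxo1 was -1.40 without B deltaPOZ 1.

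**Figure D3:**
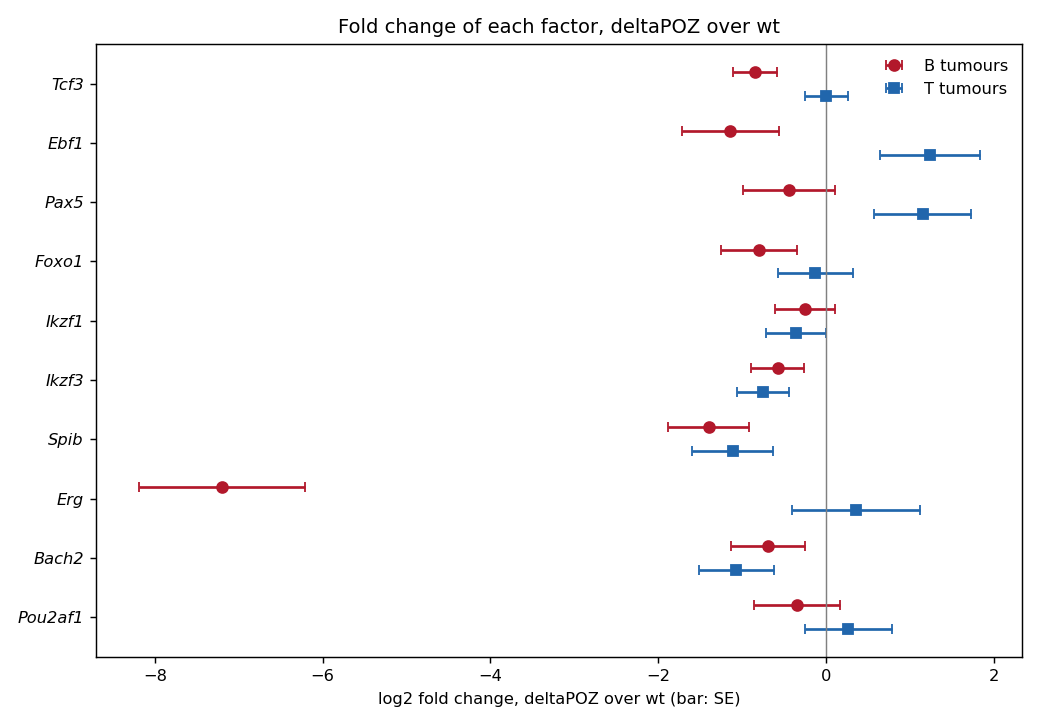
Log2 fold change of deltaPOZ over wt for each factor in B tumours (circles) and T tumours (squares), with SE bars. Every B value is below 0 and Erg in B stands alone at -7.20; the T values lie on both sides of 0.

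Markers of other cell types were read in the same B libraries. Of 8 erythroid genes, 8 had higher fitted values in B deltaPOZ (0 called by edgeR, 7 by DESeq2), with a summed level of 12.4 to 222 CPM in B deltaPOZ against 4.87 to 5.09 CPM in B wt. The 10 neutrophil and macrophage genes summed to 98.8 to 256 CPM in B deltaPOZ against 184 to 1321 CPM in B wt, and the 16 T lineage genes to 109 to 170 CPM in B deltaPOZ against 142.5 to 239.6 CPM in B wt. The sums of both lists overlapped between the genotypes. The 12 B lineage identity genes summed to 4196 to 4464 CPM in B deltaPOZ against 4282 to 7235 CPM in B wt, and these overlapped too. The 4 stroma genes summed to 83.6 to 121 CPM in B deltaPOZ against 155 to 189 CPM in B wt, without overlap. Most of this sum was Pecam1. All 4 had lower fitted values in B deltaPOZ (median log2 -0.74), with 0 called by edgeR or DESeq2. No gene of these lists was at 0 in all B libraries. Their part in the members' values was not tested. Chromosomes 3 (Foxo1) and 4 (Pax5 and Bach2) were high in 1 library, B deltaPOZ 1, by a median log2 of 0.53 and 0.45 against the other B libraries, where B deltaPOZ 2 was at -0.11 and 0.049. Set against the median of the genes on the same chromosome, the B fold changes were -1.05 for Foxo1, -0.77 for Pax5, -1.02 for Bach2 and -7.25 for Erg, so all kept their sign.

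In T tumours the members did not move together. By edgeR 0 of the 10 passed, as did 0% of all genes. At an unadjusted p under 0.05 there were 1 member, Ikzf3, and 436 genes, and DESeq2 called 0.298% of all genes and none of the members. Pax5 (log2 1.15, SE 0.58) and Ebf1 (log2 1.24, SE 0.60) were higher in T deltaPOZ without overlap, against 15.4% of all genes. Ikzf3 (-0.75, SE 0.31), Bach2 (-1.07, SE 0.45) and Spib (-1.11, SE 0.49) were lower without overlap, against 17% of all genes. The other 5 overlapped, from -0.35 (Ikzf1, SE 0.36) to 0.35 (Erg, SE 0.76), with Tcf3 at 0.00 (SE 0.26). All 10 edgeR adjusted p were 1. Pax5 was at 2.55 without T wt 1 and at 0.46 without T wt 2, and Ebf1 at 2.46 and 0.59. Bach2 was at -0.23 without T wt 1.

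Averaged over both lineages, 0 of 10 passed by edgeR, as did 0% of all genes, and 4 members and 1464 genes had an unadjusted p under 0.05. Spib was at -1.25 (SE 0.34, edgeR adjusted p = 0.457) and Erg at -3.42 (SE 0.60, edgeR adjusted p = 0.278). DESeq2 called both, where it called 1.93% of all genes. The deltaPOZ effect in B minus that in T was -7.56 for Erg (SE 1.21, edgeR adjusted p = 0.269), -2.38 for Ebf1 (SE 0.83, edgeR adjusted p = 0.731) and -1.59 for Pax5 (SE 0.80, edgeR adjusted p = 0.809). By edgeR 0 of 10 passed, as did 0% of all genes, and 2 members and 1030 genes had an unadjusted p under 0.05, while DESeq2 called Erg and 1.38% of all genes. A difference between lineages in the deltaPOZ effect was thus called for Erg by DESeq2 and by neither edgeR nor limma-voom.

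Genes that these factors act on, or act with, were read from lists drawn up for this purpose. Of 15 genes that Pax5 and Ebf1 activate, 13 were called higher and 1 lower in B against T, where 16% of all genes were called higher and 19.3% lower. The median log2 of the 15 was 4.18, against -0.05 over all genes. The 1 lower was Bst1 (-3.98, SE 0.99). Among those called higher, Cplx2 was at 7.68 (SE 0.57), the surrogate light chain relative Vpreb3 at 8.05 (SE 0.74) and the adaptor Blnk at 4.95 (SE 0.49). The same 15 in B deltaPOZ against B wt gave 14 lower and 1 higher fitted values, with a median of -1.01 against -0.01 over all genes. By edgeR 0 were called, although 6 had an unadjusted p under 0.05, as did 12.1% of all genes. That share also stands beside the later unadjusted counts in B deltaPOZ against B wt. DESeq2 called 3 of the 15 lower (Vpreb1, Bst1 and Cd72), where it called 4.18% of all genes, and limma-voom called 0. The smallest p belonged to Vpreb1, a surrogate light chain gene, which averaged 0.498 ± 0.621 CPM in B deltaPOZ and 20.6 ± 1.87 CPM in B wt (SD, n = 2 each; log2 -5.37, SE 1.15, edgeR adjusted p = 0.224). By edgeR, Bst1 and Cd72 were likewise uncalled, at -4.38 (SE 1.44) and -2.78 (SE 0.87), and Cd55 was at 1.33 (SE 0.41).

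Of 10 genes that Pax5 represses, 6 were called lower and 0 higher in B against T, where 19.3% of all genes were called lower and 16% higher. Among the 6 were the costimulatory receptor Cd28 (log2 -7.57, SE 0.73), Notch1 (-4.29, SE 0.42) and the adaptor Grap2 (-3.56, SE 0.68). T cells themselves use these genes. In B deltaPOZ against B wt 0 passed by edgeR, 2 were at an unadjusted p under 0.05, and 5 were higher and 5 lower. DESeq2 called 1, Notch1, which was at -1.81 (SE 0.54, edgeR adjusted p = 0.31). Of 10 genes that Foxo1 activates, 1 was called higher and 3 lower in B against T, where 16% of all genes were called higher and 19.3% lower. The interleukin-7 receptor gene Il7r was at 3.61 (SE 0.75), Bcl6 at -2.30 (SE 0.42), Cdkn1b at -1.01 (SE 0.20) and Gadd45a at -1.60 (SE 0.48). Il7r averaged 43.5 ± 22.9 CPM in B deltaPOZ and 257.6 ± 194 CPM in B wt, and 0 of the 10 passed there by edgeR or DESeq2, with 2 at an unadjusted p under 0.05.

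Of 15 tested relatives of the members by family, 4 were called higher and 5 lower in B, beside the same 16% and 19.3% of all genes, which also stand beside the next lists. Spi1, which encodes PU.1, was at 2.63 (SE 0.36), while Tcf12, a relative of Tcf3, was at -2.37 (SE 0.17), Foxo3 at -2.05 (SE 0.26) and Ikzf2 at -5.80 (SE 0.93). Tcf12 averaged 150 ± 41.1 CPM in B and 765 ± 45.9 CPM in T (SD, n = 4 each). So Tcf12 and Tcf3 differed between lineages in opposite directions. The paralogs Ebf2, Ebf3, Ebf4, Pax2 and Pax8 did not exceed 0.334 CPM in any library. Of 13 tested partners and inhibitors, 3 were called higher and 4 lower in B, with Irf8 at 2.42 (SE 0.22), the octamer-binding factor gene Pou2f2 at 1.80 (SE 0.31), Runx1 at -1.79 (SE 0.29) and Id1, an inhibitor of E proteins, at -6.41 (SE 1.17). Of 19 other tested factors of the early B lineage, 6 were called higher and 6 lower, among them Zeb2 at 2.33 (SE 0.21), Mef2c at 3.66 (SE 0.49), Etv6 at -1.57 (SE 0.16) and Lef1 at -3.21 (SE 0.37). In B deltaPOZ against B wt 0 genes of these 3 lists passed by edgeR. At an unadjusted p under 0.05 there was 1, Myb, which DESeq2 also called (edgeR log2 -1.07, SE 0.30, edgeR adjusted p = 0.291).

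Stage markers were read in the same way. Of 10 precursor B genes 9 had lower fitted values in B deltaPOZ than in B wt, with a median log2 of -2.13. Of these 10, 0 were called by edgeR, 5 were at an unadjusted p under 0.05 and 2 were called by DESeq2 (Vpreb1 and Arpp21). Without overlap 8 were lower, against 19.1% of all genes. Some were low in every B library: Arpp21 read 0.0195 to 1.98 CPM, Dntt 0.0399 to 1.84 CPM and Kit 0.319 to 1.78 CPM. Of 9 matched mature B genes 4 were higher and 5 lower, with a median of -0.07, 0 called by edgeR or DESeq2 and 2 at an unadjusted p under 0.05, among them the invariant chain gene Cd74 at 1.70 (SE 0.67) and its activator Ciita at 1.75 (SE 0.77). Beside the 10 factors, whose median was -0.74, the 12 B lineage identity genes had a median of -0.57.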

How the data were processed

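Gene counts per library were made by the authors: per the submitters' processing notes, reads were handled with TopHat2 2.0.10, SAMtools and HTSeq on mm10/GRCm38, and DESeq is named. Per the labels' protocols, libraries were made with a TruSeq Stranded mRNA kit. The sources used here do not give the annotation release or the strand setting of HTSeq. No-feature counts (30.4 to 39.3%) and ambiguous counts (0.471 to 0.554%) were left out. Antisense genes overlap up to 7.78% of a member's exons (Gm20402 on Foxo1) and held at most 9 counts in a library.

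Names, positions and exon lengths are those of GENCODE M21 (GRCm38), where 40340 of the 41214 identifiers were found. The deposited counts were scaled by trimmed means of M values, filtered with filterByExpr and fitted over all 8 libraries with 1 mean per group in edgeR 4.0.16 (glmQLFit and glmQLFTest, residual degrees of freedom 4, biological coefficient of variation 0.45), with Benjamini-Hochberg adjustment and a threshold of 0.05. The SE is the log2 fold change divided by the square root of F. Libraries were numbered within a group in record order, which pairs nothing. DESeq2 1.42.0 and limma 3.58.1 (R 4.3.3), and SciPy 1.17.1, pandas 2.3.3, matplotlib 3.10.9 and NumPy 2.4.6 (Python 3.11.15) were also used, and the code was tested on simulated data.

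The members, gene lists, tests and settings were chosen with earlier results of these data known. Named genes are the members, Zbtb17, up to 4 genes of a list with the smallest p, and the 3 protein-coding genes nearest in pattern. Xist, Ddx3y, Cd3e, Cd79b as a check, the 5 Ebf and Pax paralogs, Cd24a and Ighm in T, and Bst1 in B against T were added after their values were seen. Alternatives were other normalizations, filters, tools and thresholds, each lineage or genotype alone, an additive model, and fits without 1 or 3 libraries. Results of 1 gene are not reported here, though it stayed in every fit and list.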

Additional observations from a re-analysis of the deposited data

Results flagged for a closer look

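In 4 of 20 sets of 4 libraries (each member in B and in T), 1 library lay far from the other 3. Chance gives about 1 in 20 for independent sets of like samples. These sets share the same libraries across members, and each mixes both genotypes, so that rate is only a guide. The measure is the gap to the nearest library divided by the range, with a critical value of 0.829 for 4 samples. B wt 1 was high for Ikzf3 (195.6 CPM, 0.967), Spib (278 CPM, 0.882) and Pou2af1 (884 CPM, 0.862) among the B libraries. T wt 1 was high for Bach2 (14.3 CPM, 0.907) among the T libraries. The cause was not tested.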

How the results depend on the processing

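The count of members called in B deltaPOZ against B wt was 0 by edgeR, 1 (Erg) with a threshold of 0.1, where 0.237% of all genes passed, and 1 (Erg) with DESeq2. DESeq2 also called 2 members (Erg and Spib) for the average over lineages and 1 (Erg) for the difference between lineages, against 0 by edgeR in both. Leaving out each library left these counts and that of T at 0. For B against T the count was 6 to 8, with Tcf3 lost without T deltaPOZ 2 and Ikzf3 gained without B wt 1, and 6 without B wt 2, T wt 1 and T deltaPOZ 2. The cause was not tested.

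Log2 values that changed sign did so where the edgeR fit had called nothing. Without B wt 2, T wt 1 and T deltaPOZ 2, Ikzf1 in T was 0.22, and the differences between lineages were -0.72 for Ikzf1, -0.49 for Ikzf3, -0.69 for Bach2 and 0.045 for Foxo1. Erg of B over T was -2.66 in deltaPOZ libraries only. Leaving out each library in turn gave -0.44 to 0.057 for Ikzf1 in B. In T it gave -0.057 to 0.061 for Tcf3, -0.95 to 0.063 for Ikzf1, -0.36 to 1.40 for Pou2af1, -0.59 to 0.22 for Foxo1 and -0.32 to 1.67 for Erg. For the difference it gave -0.31 to 0.70 for Ikzf1, -0.18 to 0.73 for Ikzf3, -0.47 to 0.90 for Bach2, -0.83 to 0.75 for Spib and -1.74 to 0.014 for Pou2af1. Of the other values of single members, 641 kept their direction and side of the threshold.

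No paired analysis was possible because the labels give no replicate numbers. With 2 libraries per group and residual degrees of freedom of 4, small differences are out of reach of these tests, and large ones can fail to pass. In B deltaPOZ against B wt, Erg did not pass at a log2 of -7.20 (edgeR adjusted p = 0.0819). Vpreb1 did not pass at -5.37 (edgeR adjusted p = 0.224). A member that did not pass is therefore not shown to be unchanged.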
